A study of Rattus norvegicus with 112 samples.

Results

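Untreated primary cultures of rat cortical neurons were profiled as the control arm of 8 hybridization runs. All arrays that the labels call Control, CO or Co in runs 9136, 9600, 13276, 14985, 19222, 19283, 19869 and 23145 were taken, which gave 25 of the 112 arrays of the series. Run 9136 held 4 of them, run 9600 held 1, run 14985 held 5 and each of the other runs held 3. A further 5 arrays, in run 21823, carried the control samples of run 14985 a second time, after what the labels call an oven failure, and served only as technical repeats. The labels do not say which of these runs the failure touched.

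All control cultures were free of drug. Their runs differed in what was done to the treated cultures beside them. In runs 9136 and 9600 these received 1 mM NMDA, an agonist of a class of glutamate receptors, for 10, 30 or 60 min and were harvested 24 h after wash-out. In run 14985 they received 10 uM nicotine for 18 h, NMDA for 30 min or both, again with harvest 24 h after wash-out, and in run 19283 they received 2 uM 4R for 18 h, also followed by 24 h without drug. In run 13276 nicotine for 18 h and NMDA for 60 min ran up to harvest, as did NMDA for 10 to 360 min in run 19222 and 4R for 18 h in run 19869. In run 23145 nicotine was given for 15 min, the medium was changed, and cells were taken 45 min later. The labels do not say whether control cultures had the same medium changes, and give no strain, animal age, days in culture or glial content. In run 9136, controls 3 and 4 carry the same label, with 2 letters of unstated meaning added on the latter. Controls 2 and 3 of run 19283 are labelled in the same way. The arrays of either pair may therefore not come from separate cultures, and their ranks correlated at a Spearman rho of 0.91 and 0.90, like other pairs of these runs.

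Such cultures are made by dissociating cerebral cortex and growing the cells on a coated surface, where neurons extend axons and form synapses. Astrocytes, the support cells that take up glutamate and feed neurons, and precursors of oligodendrocytes, the cells that form myelin, usually remain among them. Immediate early genes are transcription factor genes that respond within minutes to synaptic activity or handling without new protein synthesis, while heat shock and antioxidant genes respond over hours to damaged protein or oxidants.

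The array was a rat neurobiology chip on which each probe set reads a short stretch of a transcript. Each of the 1263 probe sets left without the hybridization controls has a signal, the authors' scaled intensity. The signal of a probe set depends on its sequence as well as on the amount of RNA, so an order of signals is an order of brightness and not of transcript amounts. Of the 176 genes with more than 1 tested probe set, the brightest was a median of 2.37 times as bright as the dimmest, and Thra, a thyroid hormone receptor gene, reached 90.7 times. Each gene is represented below by its brightest probe set unless stated.

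The arrays had been brought to a common trimmed mean of 2510 to 2513. Their median signal still ran from 443 to 808. It lay at 443 to 547 on the 5 arrays of run 14985 and at 669 to 808 on the 3 arrays of run 19222. A background level was set on each array as the 90th percentile of 15 probe sets for Bacillus genes, and ran from 156 to 435. Between 744 and 971 probe sets exceeded it, with a median of 906. For Gapdh the ratio of 3' to 5' signal, which rises as RNA is degraded, was 1.22 to 1.79 on 24 arrays and 3.36 on control 2 of run 13276. The same array had a ratio of 4.60 for beta-actin, against 0.74 to 1.21 on the others. Fewer cells of a type and less RNA per cell cannot be told apart in such bulk samples.

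The brightest probe sets were the same kinds of gene on nearly every array. Tubb5, a beta-tubulin of the microtubules, was first with a signal of 160990 ± 23785 (SD, n = 25), and its rank was 1 or 2 on each array. Nnat, a small membrane protein of developing neurons, followed at 77272, and Mapt, which encodes the axonal protein tau, at 74573 ± 23268. Next came Ckb, brain creatine kinase, at 72286 ± 17028, and Atp1b1, a sodium pump subunit, at 59620 ± 7897. Mt2A, a metallothionein, lay at 55048, Rpsa, a ribosomal protein, at 53935 and Hsp90ab1, a constitutive chaperone, at 51847 ± 8552.

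Those ranks held across arrays. The 20 brightest probe sets carried 28.4% of all signal. Of these, 16 stayed within rank 50 on all 25 arrays, and the lowest rank that any of them took was 143. Mt2A ranged most among the genes just named, from rank 3 to rank 73. At the other end, 242 of 1263 probe sets (19.2%) were above background on at most 5 arrays, while 757 (59.9%) were above it on at least 20. Counted by gene, 462 of the 720 named genes were above background, 147 lay between these limits and 111 were not above it.

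**Figure D1:**
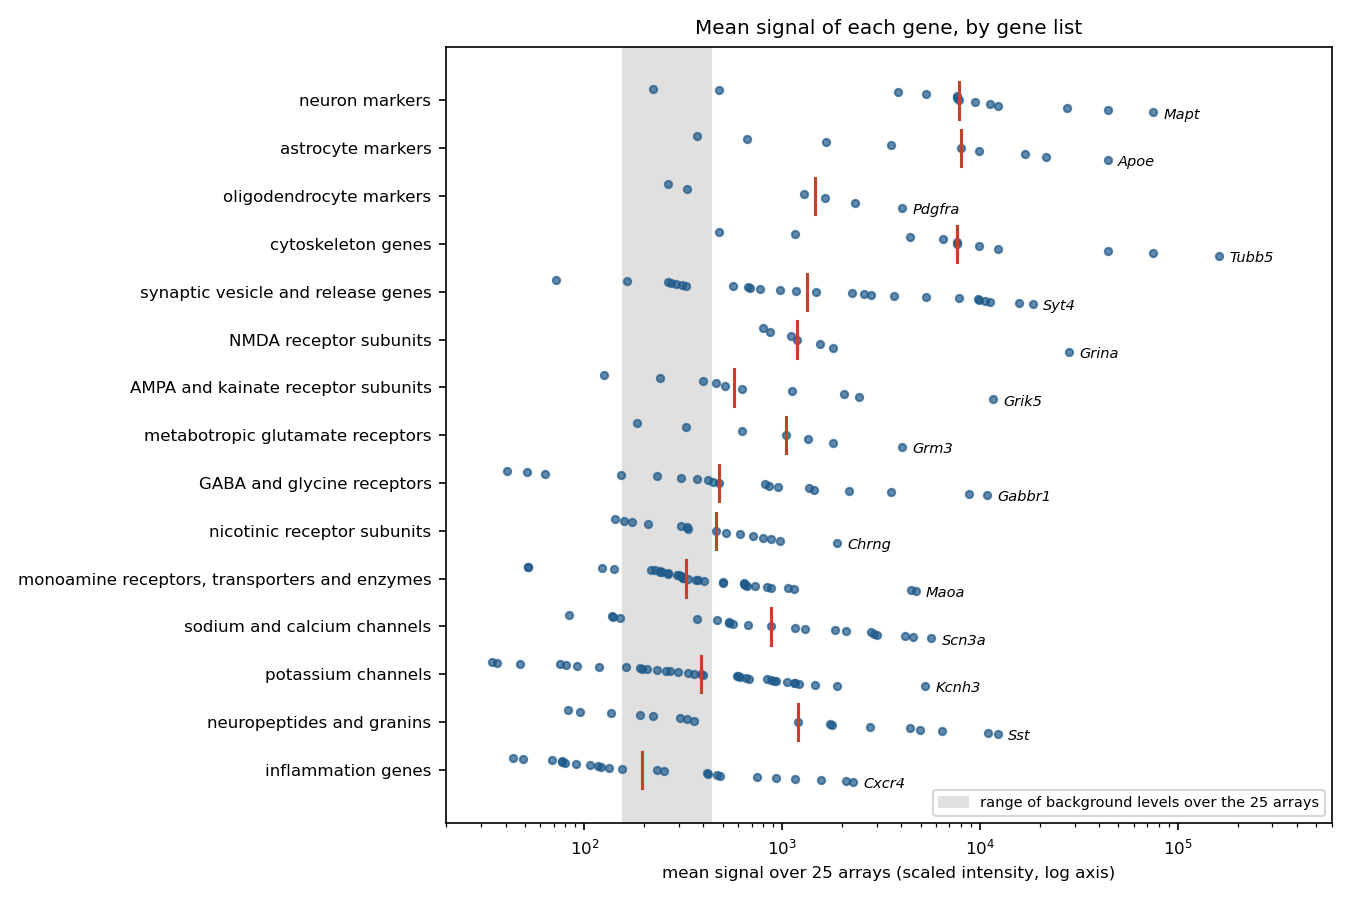
Mean signal over 25 untreated arrays (log axis) of each gene in 15 lists, with each point 1 gene at its brightest probe set, red bars at list medians and the brightest gene named. The grey band spans the background levels of the arrays, 156 to 435. Cytoskeleton genes and neuron and astrocyte markers lie mostly to its right, while inflammation genes lie mostly within or below it.

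Markers of the labelled cell type were bright. Of 26 listed neuron markers, 13 had a named probe set, and 12 of these were above background. Mapt, Gap43 (a growth cone protein, 44368 ± 7243) and Eno2 (neuronal enolase, 27400 ± 5825) led, followed by Map2, a dendritic protein, at 12340 ± 2999. Camk2a, a kinase of mature excitatory synapses, was the dimmest at 222 ± 108 and exceeded background on 13 of 25 arrays. Gad1 and Slc32a1, which make and package the inhibitory transmitter GABA, were present at 3835 ± 2397 and 6418 ± 2484.

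Glial markers were present too. All 9 astrocyte markers with a probe set were above background, from Apoe, a lipid carrier, at 44210 ± 21240 down to Slc1a2, a glutamate transporter, at 369 ± 141. Of 6 oligodendrocyte lineage markers, 3 were above background. Pdgfra, a receptor of the precursors, was the brightest at 4020 ± 1790 and Mog, a late myelin protein, the dimmest at 266 ± 235, above background on 8 arrays. Another Pdgfra probe set had a mean of only 150 and was above background on 4 arrays. The only microglial marker on the array, Itgam, had a signal of 209 ± 125 and exceeded background on 7 arrays. All 3 endothelial or meningeal markers were above background, led by Igfbp2 at 8756 ± 2858. None of the 17 listed proliferation genes had a named probe set.

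Among glutamate receptors, all 7 genes of the NMDA receptor list were above background. Grina, a glutamate-binding protein that is not a channel subunit, was far the brightest at 28223 ± 5690. Of the channel subunits, Grin2b gave 1810 ± 479 and the obligatory subunit Grin1 gave 1550 ± 556, while Grin2d was the dimmest at 800 ± 215. Grik5, a kainate receptor subunit, led the AMPA and kainate list at 11618 ± 2062. The AMPA subunits Gria1 and Gria2 lay at 2437 ± 706 and 2044 ± 738, and Grik1 was not above background. Of the metabotropic receptors, Grm3 led at 4032 ± 2246 and Grm8 was not above background.

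Receptors of other transmitters were dimmer, with exceptions. Gabbr1 and Gabbr2, which together form the metabotropic GABA receptor, gave 10880 ± 3511 and 8754 ± 1383. In the same list of 19 genes, Gabrg3, Glra3, Gabrr3 and Gabrr2 were not above background. In the nicotinic list Chrng, a muscle subunit, was the brightest at 1899 ± 422. The brain subunits Chrna7, Chrna4 and Chrnb2 gave 708 ± 394, 614 ± 326 and 462 ± 225, and Chrnb3 was the dimmest at 143 ± 92, above background on 6 arrays. Of 34 monoamine genes, 13 were above background. They were led by Maoa, which degrades monoamines, at 4717 ± 1117 and Drd3, a dopamine receptor, at 4456 ± 1710, and Dbh, which makes noradrenaline, was not above background on any array. Another Drd3 probe set had a mean of only 139 and was above background on 5 arrays, so detection of Drd3 rests on the brighter probe set.

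Ion channel and synaptic genes spanned a wide range. Scn3a and Scn2a, sodium channels of the developing brain, led their list of 21 at 5656 ± 1373 and 4602 ± 1378, and the muscle calcium channel Cacna1s was not above background. Of 35 potassium channel genes, 18 were above background. Kcnh3, a brain channel, led at 5264 ± 854, and Kcnj2 and Kcnq1 were above background on no array. Of 26 vesicle and release genes, Syt4 was the brightest at 18483 ± 3867, followed by Nrxn2 at 15688 ± 3792 and Syp, synaptophysin, at 11246 ± 1815. Stx3 was not above background.

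Signalling and secreted factors completed the lists. Camk2b, a synaptic kinase, led the postsynaptic genes at 27247 ± 7234. Ntrk2, the BDNF receptor, gave 7132 ± 1848 against a dim and steady Bdnf at 977 ± 172. Sst, the somatostatin gene of a class of inhibitory neurons, led the neuropeptides at 12308 ± 8753, and Calcb was above background on no array. In the cell death list Capns1, the small calpain subunit, led at 39024 ± 4945 and Fas was above background on no array. Of 24 inflammation genes, 8 were above background and 12 were not. Tnf, Il6, Il1a and Il1b were among the latter, and Cxcr4, a chemokine receptor, led at 2288 ± 488.

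Variation was then set within and between runs. For each of the 884 probe sets that passed a filter on low signals, log2 values were split into a pooled SD among arrays of a run and an SD between runs. The median SD within runs was 0.406 and the median SD between runs was 0.281. The SD between runs was the larger in 258 of 884 probe sets (29.2%). Arrays within run 23145 were closest, with a median SD of 0.218, and those within run 13276 were farthest apart, at 0.386. Run 13276 includes the array with the high 3' to 5' ratios, and the pooled value without that array was 0.379.

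The 7 runs with replicates differed in 387 of 884 probe sets (43.8%) by limma's moderated F test with Benjamini-Hochberg adjustment. The means of the highest and lowest run lay more than 1 log2 unit apart in 284 of these and more than 2 units apart in 72. Counted by gene, 232 of 542 tested genes (42.8%) differed. The runs correspond to separate experiments, cultures and hybridizations at once, so what a run adds through its cells and what it adds through its arrays cannot be told apart. Without run 14985 the count fell to 188. With repeat run 21823 in its place it was 66, or 238 without the 2 repeat arrays described below.

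**Figure D2:**
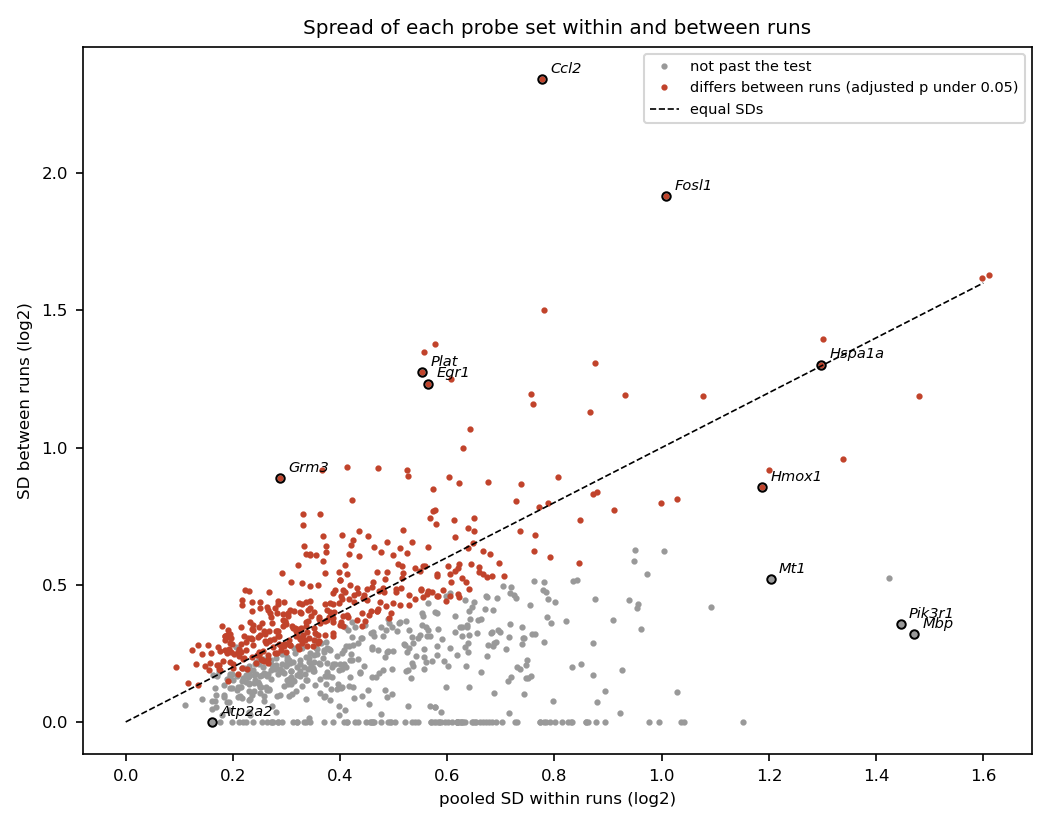
Pooled SD within runs (x axis) against SD between runs (y axis), in log2 units, for the 884 tested probe sets, with red points for the 387 that differed between runs and a dashed line where the SDs are equal. Ccl2, Fosl1, Plat, Egr1 and Grm3 lie far above the line, while Mbp, Pik3r1 and Mt1 lie far below it.

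The share of members that varied by run is given for each list with tested members, beside the 43.8% of all probe sets. Lists count each gene at its brightest probe set, and among the brighter 442 probe sets the share was 52.7%. Above both stood the astrocyte markers (7 of 9 tested), cytoskeleton genes (8 of 11), stress genes (7 of 10), neuron markers (8 of 12) and immediate early and activity-regulated genes (9 of 14). So did endothelial and meningeal markers (2 of 3) and inflammation genes (6 of 10). Adhesion and matrix genes (7 of 12) and the NMDA receptor list (4 of 7) did as well. Vesicle and release genes (12 of 23) and GABA and glycine receptors (7 of 14) were near them. Also near them were oligodendrocyte markers (3 of 6), metabotropic glutamate receptors (3 of 6) and neuropeptides (6 of 12). Cell death genes (8 of 16) and glucose transporter and energy genes (5 of 10) were near them too. Potassium channels (6 of 22), postsynaptic genes (6 of 20), neurotrophic genes (7 of 21), sodium and calcium channels (6 of 17) and nicotinic subunits (4 of 11) were below both. So were AMPA and kainate subunits (3 of 8), muscarinic and acetylcholine genes (2 of 6) and monoamine genes (9 of 23). Amino acid transmitter genes (3 of 9) and G protein genes (7 of 17) were below both as well. Under quantile scaling, where 297 of 884 differed, the counts were 5 of 11 for cytoskeleton genes, 3 of 21 for neurotrophic genes, 3 of 20 for postsynaptic genes and 2 of 11 for nicotinic subunits. Neuron markers gave 6 of 12, stress genes 5 of 10 and the NMDA receptor list 2 of 7. The share of the brighter 442 probe sets was 45.2%. Neuron markers and stress genes were slightly above that share, cytoskeleton genes were level with it and the NMDA receptor list was below it. Vesicle and release genes (12 of 23), glucose transporter and energy genes (5 of 10) and metabotropic glutamate receptors (3 of 6) were slightly above it too. Astrocyte markers (6 of 9) and immediate early genes (9 of 14) stayed further above it. So did inflammation genes (6 of 10), adhesion and matrix genes (7 of 12) and endothelial and meningeal markers (2 of 3). The median range of run means over all tested probe sets was 1.03 log2 units. It was 1.83 in the stress list, 1.75 in the immediate early list and 1.46 among astrocyte markers, against 0.76 among sodium and calcium channels.

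Egr1, Fos, Nr4a1 and Junb were highest in run 23145, although the immediate early list as a whole was not. The mean log2 level of its 14 genes relative to all arrays was 0.29 ± 0.11 in that run, 0.35 ± 0.09 in run 19283 and 0.33 ± 0.27 in run 14985. Egr1, a zinc finger transcription factor, had signals of 70479, 73399 and 70197 there. It read 31447, 41930, 27979, 47103 and 53731 in run 14985, and 33684, 8923, 39644 and 26987 in run 9136. In run 19283 it read 16560, 22019 and 36168, and in run 13276 it read 13923, 25761 and 11234. Run 19222 gave 8358, 12615 and 6303, run 9600 gave 6575, and run 19869 was the lowest with 5105, 4870 and 3941. All 3 arrays of run 23145 thus lay above all 22 others, and all 3 of run 19869 lay below all others. The low separation of run 19869 was seen on this probe set of Egr1 only. The run means spanned 3.93 log2 units (adjusted p = 7.65e-06), and the same 2 runs were highest and lowest under quantile and median scaling.

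Fos, a subunit of the AP-1 transcription factor, was also highest in run 23145. On its brightest probe set it read 12357, 18047 and 14137 in that run and 2361 to 8540 on the other 22 arrays (adjusted p = 0.000187). Nr4a1, an orphan nuclear receptor, read 6233, 10486 and 11470 against 971 to 2391 elsewhere, with no overlap (adjusted p = 4.46e-06). Outside run 23145 the run means of Nr4a1 were close, between 1281 ± 231 and 1739 ± 527. Egr1 differed there by far more, from 4639 ± 616 in run 19869 to 40438 ± 10717 in run 14985.

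The separation of run 23145 was common to several probe sets of these genes. All arrays of run 23145 exceeded all others in 17 of 884 probe sets (1.92%). Those 17 included all 4 probe sets of Egr1, all 3 of Fos, both of Nr4a1 and 1 of 2 of Nr4a3. Junb also had its highest mean in this run, at 2334 ± 483, and its lowest in run 19869, at 405 ± 211 (adjusted p = 0.00317), though 1 array of run 9136 at 2065 lay within its range. Jun differed between runs (adjusted p = 0.00497), but its highest run was 23145 as deposited and 14985 under quantile and median scaling. Of the 9 list members that differed between runs, 6 were highest in run 23145 as deposited, Jun included, and 2, Vgf and Fosl1, were lowest there. Of all 387 probe sets that differed, 55 were highest and 60 lowest in that run. The lowest run of Vgf was 19222 under median scaling, and that of Fosl1 was 19869 under quantile and median scaling. These were the controls of the run whose treated cells were harvested 45 min after a medium change. Whether its control medium was changed too is not stated, and its part in the result was not tested.

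**Figure D3:**
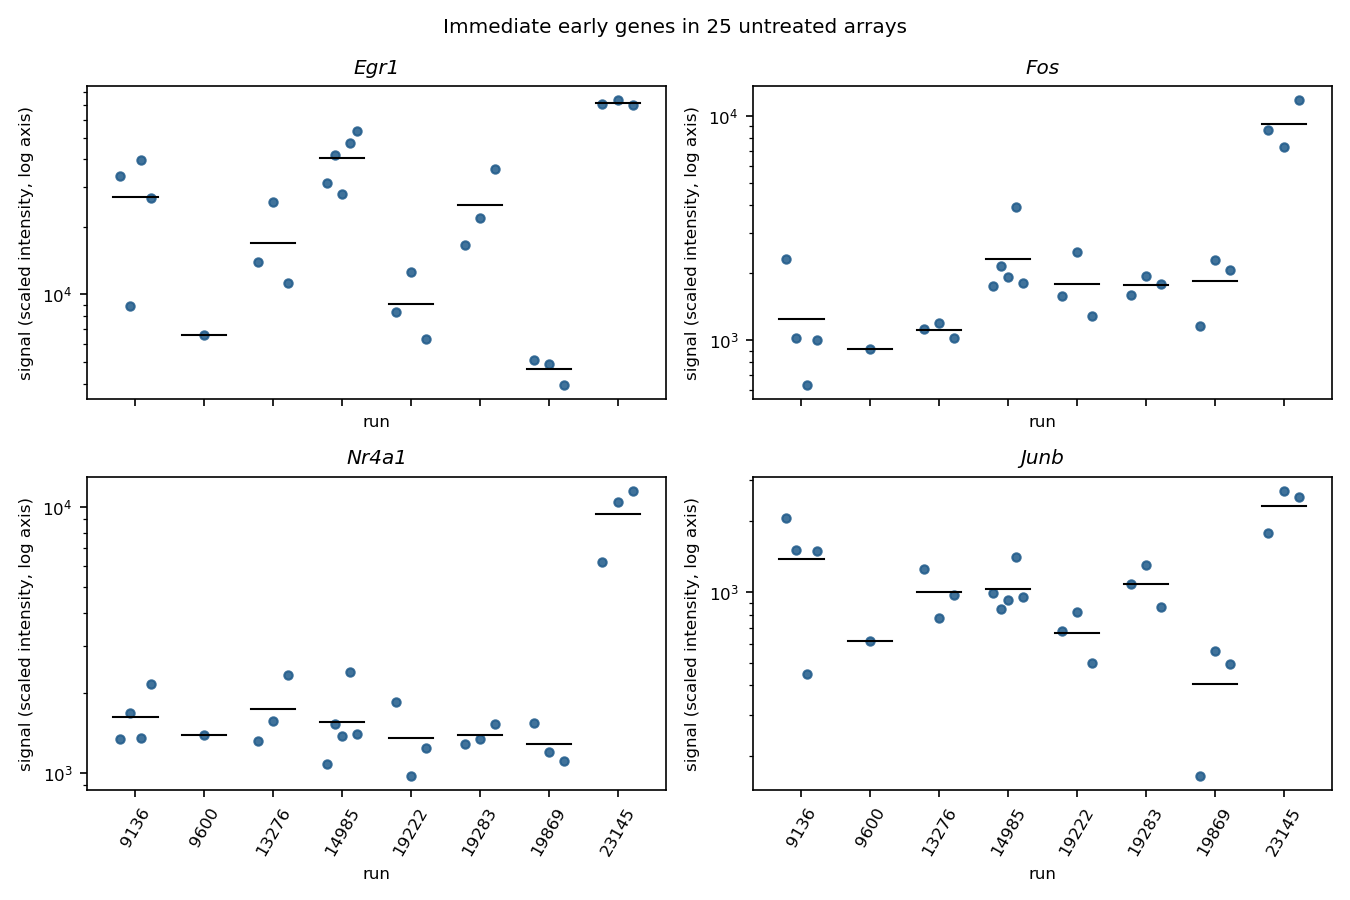
Signal (log axis) of Egr1, Fos, Nr4a1 and Junb on each of the 25 untreated arrays, grouped by run, with black bars at run means. For Fos the probe set shown is another than its brightest. In run 23145 Egr1 lies between 70197 and 73399 and Nr4a1 between 6233 and 11470, above all other arrays.

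Ccl2 and Fosl1 were high in runs 9136, 14985 and 19283 and low in the others. Of the 387 probe sets that differed, 33 had these as their 3 highest runs and 31 as their 3 lowest, while 72 had runs 19222, 19869 and 23145 as the 3 highest. Ccl2 encodes a chemokine that attracts monocytes. It read 3835, 9077, 4046 and 3688 in run 9136, and 3471, 2660, 10474, 1247 and 1821 in run 14985. In run 19283 it read 2300, 4368 and 3492. The other 13 arrays lay between 16 and 367, with 367 on the array of run 9600 and 16, 43 and 37 in run 23145. No array of the 3 runs overlapped with any other, on either probe set of the gene (adjusted p = 1.98e-07 and 4.37e-05). These were the only 2 of 884 probe sets (0.226%) on which all 12 arrays lay above all 13 others, and on none did all 12 lie below (0%).

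Fosl1, an AP-1 subunit gene that responds later than Fos, had the same pattern with 1 exception. It read 2442, 745, 949 and 2234 in run 9136 and 3700, 3889 and 1171 in run 19283. In run 14985 it read 2134, 1570, 2575 and 2660 on controls 1 to 4 and 79 on control 5. All 13 arrays of the other runs lay between 37 and 113, so control 5 of run 14985 fell among them (adjusted p = 4.37e-05). The repeat array of this sample lay above all 13. The range of run means was 4.56 log2 units, second to the 5.73 of Ccl2 among all named probe sets.

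Of the 7 stress genes that differed between runs, Hspa1a, Hmox1 and Hspb1 were highest in run 19283 and Hspd1 in run 14985. The other 3, Mt3, Sod1 and Sod2, were highest in run 13276. Hspa1a, the inducible heat shock protein 70, read 8173, 1153, 1649 and 13032 in run 9136. It read 16656, 1416, 5779, 14293 and 752 in run 14985, and 8640, 13755 and 5016 in run 19283. The other 13 arrays lay between 196 and 1550, so 9 of the 12 arrays exceeded all of them (adjusted p = 0.00766). Hmox1, which degrades haem, was highest in run 19283, at 46630, 65698 and 17430, and lowest in run 23145, at 3741, 4094 and 5485 (adjusted p = 0.0383). Under median scaling the lowest run of Hmox1 was 19222. Hspb1, a small heat shock protein, read 9408, 19415 and 5352 in run 19283 and 1029, 928 and 1276 in run 23145, where all 3 arrays lay below all others (adjusted p = 0.00049).

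Other members of the stress list varied less or did not pass. Mt1, a metallothionein, ranged from 2700 to 95423 but did not pass (adjusted p = 0.156), and Hsp90ab1 did not either. Mt3, a brain metallothionein, gave 32621 ± 10067 in run 13276 against 15139 ± 881 in run 19869 (adjusted p = 0.00417), and Sod2, the mitochondrial superoxide dismutase, gave 3068 ± 1447 against 1005 ± 64 (adjusted p = 0.0276). Hspd1, a mitochondrial chaperone, passed with run means only 0.50 log2 units apart. Plat, the tissue plasminogen activator, was highest in run 14985, at 2713, 2991, 2425, 2371 and 2705, and lowest in run 23145, at 282, 192 and 137 (adjusted p = 6.71e-06). Vim and Nes, intermediate filaments of immature and reactive glia, also had their highest log2 means in run 14985, with signals of 14468 ± 2805 and 6094 ± 464 (adjusted p = 0.00378 and 0.000231). Their means were 14082 ± 7730 and 6447 ± 2811 in run 9136, against 3360 ± 1050 and 2192 ± 173 in run 23145. When the repeat arrays kept for comparison, described below, took the place of run 14985, Nes remained highest there. Plat and Vim did not remain highest there.

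Treated cultures of runs 9136, 14985 and 19283 were harvested 24 h after a wash-out. Those of run 9600 were too, and its single control was low in Ccl2 (367), Fosl1 (54) and Hspa1a (536). The association of these genes with the harvest scheme was seen after their values and was not tested. Endothelial and meningeal markers were also highest on average in these 3 runs. The mean log2 level of the 3 measured, relative to all arrays, was 0.30 ± 0.18 in run 9136, 0.27 ± 0.13 in run 14985 and 0.28 ± 0.12 in run 19283. It was 0.15 ± 0.05 in run 13276 and 0.07 on the array of run 9600, and lay at -0.26 ± 0.24, -0.37 ± 0.15 and -0.66 ± 0.30 in runs 19869, 19222 and 23145. Of these markers Igfbp2, a growth factor binding protein, and Slc2a1, a glucose transporter, differed between runs (adjusted p = 0.00355 and 0.002), and Igf2 did not pass. Their part in the result was not tested. Astrocyte markers went the other way. Their mean log2 level relative to all arrays was -0.25 ± 0.28 in run 9136, -0.31 ± 0.07 in run 14985 and -0.14 ± 0.23 in run 19283, against 0.52 ± 0.15 in run 19869. Itgam, the sole microglial marker, was too dim to be tested.

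**Figure D4:**
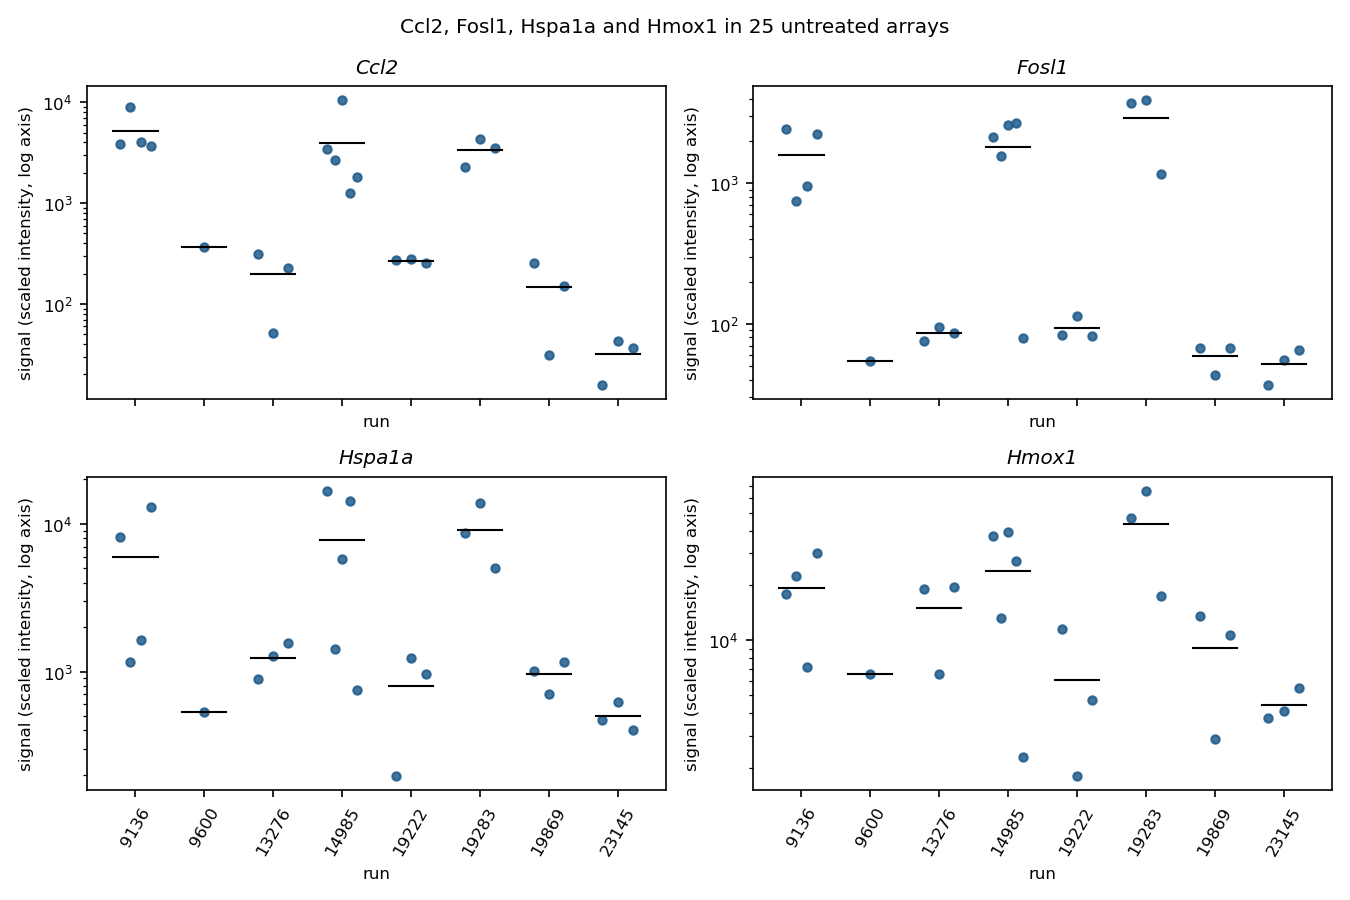
Signal (log axis) of Ccl2, Fosl1, Hspa1a and Hmox1 on each of the 25 untreated arrays, grouped by run, with black bars at run means. Ccl2 lies at 1247 or above on the 12 arrays of runs 9136, 14985 and 19283 and at 367 or below on the other 13.

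Run 19869 stood apart in synaptic and glial surface genes. Syn1, synapsin of synaptic vesicles, read 14524, 15644 and 12429 there. It read 10503, 11362 and 10664 in run 23145 and 3633 to 8141 on the remaining 19 arrays, so run 19869 lay above all others (adjusted p = 0.000106). Ncan, an extracellular proteoglycan, read 3155, 5773 and 8657 against 107 to 2680 elsewhere (adjusted p = 0.00165). Syt11, a synaptotagmin, read 8576, 11584 and 7454 against 393 to 5371 (adjusted p = 0.00049), and Atp1b2, a glial sodium pump subunit, read 11621, 14427 and 7788 against 1515 to 7395 (adjusted p = 0.000128). The dim end of Syt11 and Ncan, 393 and 107, was control 2 of run 13276, the array with the high 3' to 5' ratios. Without that array their adjusted p were 1.53e-05 and 0.000151.

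All arrays of run 19869 exceeded all others in 13 of 884 probe sets (1.47%) and lay below all others in 10 (1.13%). Besides the genes above, the 13 held Gja1, the astrocyte gap junction protein (1412 to 1933 against 121 to 1204), Slc6a11, a GABA transporter of astrocytes (2597 to 3488 against 516 to 2344), and Nlgn3, a synaptic adhesion protein (1087 to 1619 against 106 to 1021). The 10 held both probe sets of Syt4, Thra, and Egr1 on its brightest probe set only. Among the 12 vesicle and release genes that differed by run, 6 were highest in run 19869. Snap25, which drives vesicle fusion, gave 8425 ± 961 there, 7757 ± 452 in run 23145 and 2672 ± 617 in run 14985 (adjusted p = 0.000182), and was highest in run 23145 under median scaling. Syt4 went the other way, at 11462 ± 1838 in run 19869 against 16997 ± 3011 to 22115 ± 1310 in the other replicated runs.

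Of the 7 astrocyte markers that differed between runs, 3 were highest in run 19869 (Glul, Slc6a11 and Gja1, with Glul highest in run 23145 under median scaling). Another 3 (Apoe, Mt3 and S100b) were highest in run 13276, and Mt3 was lowest in run 19869. Vim was highest in run 14985, but did not remain so when repeat arrays took the place of that run. The mean level of the list was 0.41 to 0.69 log2 units above the average of all arrays in run 19869, and between -0.63 and 0.49 on the other arrays, so that 1 array of run 13276 lay within the range of run 19869. The neuron list was 0.12 to 0.21 above in run 19869 and between -0.38 and 0.19 elsewhere. The part of cell makeup in the differences between runs was not tested.

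In run 14985 Tac1 and Vgf were high and Grm3 was low. Of the 6 neuropeptide genes that differed between runs these 2 were highest there, and Nmu was lowest there as deposited but in run 23145 under quantile and median scaling. Tac1, which encodes substance P, read 7474, 10432, 7211, 11203 and 21273 there and 767 to 6026 on the other 20 arrays, with no overlap (adjusted p = 0.000277). All arrays of this run exceeded all others in 2 of 884 probe sets (0.226%), and the other was Mif, a cytokine gene. On the repeat arrays of samples 1, 2 and 5, Tac1 read 4661, 7317 and 18568, still the highest mean among runs. Without run 14985 the remaining runs did not pass for Tac1 (adjusted p = 0.123). Vgf, a secreted neuronal protein induced by activity and growth factors, was also highest in run 14985, at 23011 ± 4909, and its repeat arrays read 21600, 25057 and 27017. It gave 17667 ± 8342 in run 19283, 13161 ± 9062 in run 9136 and at most 5096 ± 1168 in the other replicated runs (adjusted p = 0.000166).

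Grm3, a metabotropic glutamate receptor of neurons and astrocytes, had the second smallest adjusted p of all named probe sets (5.62e-07). It read 1358, 1707, 1728, 1138 and 1306 in run 14985 and 2743, 2214 and 1561 in run 19283. In contrast it read 8173, 6745 and 7379 in run 13276 and 6535, 6900 and 7306 in run 23145. Only 1 of the other 19 arrays, at 6835 in run 19222, reached the range of these 6. Its repeat readings for samples 1, 2 and 5 of run 14985 were 1274, 1632 and 1363. The SD within runs was 0.288 log2 units against 0.888 between runs.

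Apoe and S100b, both made mainly by astrocytes, were highest in run 13276. Apoe read 67068, 81265 and 74979 there, above all 22 others at 10440 to 66317 (adjusted p = 0.0216), and 22628, 22436, 24992, 26520 and 10440 in run 14985. All arrays of run 13276 exceeded all others in 6 of 884 probe sets (0.679%). S100b gave 8793 ± 3754 in run 13276 and 1003 ± 317 in run 14985 (adjusted p = 0.0301), a difference that did not pass under quantile scaling (0.0518), and run 9136 was the lowest under quantile and median scaling. Neither gene passed without run 14985 (adjusted p = 0.21 and 0.166).

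Of the 232 genes that differed, 42 were highest in run 19222 and lowest in run 14985, the runs with the highest and lowest median signals. Of these 42, 26 lay below the median tested signal of 1256, as did 89 of the 232. In the 9 lists of receptors and channels, 44 of 114 tested genes differed, and 15 of the 44 had this pattern, among them Kcnh2, Kcnj1, Chrna7, Gabrr1 and Drd5. Kcnh2, a cardiac and neuronal potassium channel, gave 2726 ± 365 and 1353 ± 273 in these runs, and Kcnj1 gave 1524 ± 289 and 647 ± 125. Under median scaling the lowest run of Kcnh2 was 19283 and the highest run of Kcnj1 and Chrna7 was 9136, and the lowest run of Drd5 was 23145 under both other scalings. None of these 5 genes passed without run 14985, with adjusted p from 0.0517 for Kcnj1 to 0.157 for Chrna7. All arrays of run 19222 exceeded all others in 7 of 884 probe sets (0.792%), Kcnh2 and Chrng among them. Relative to the average of all arrays, the median probe set was shifted by 0.19 log2 units in run 19222 and by -0.10 in run 14985. Under quantile scaling 18 of the 42, and 10 of the 15, still differed. Among the dimmer 442 of the tested probe sets 154 differed (34.8%), with 67 highest in run 19222 and 63 lowest in run 14985. Among the brighter 442, 233 differed (52.7%), with 43 and 54. Under quantile scaling the shares were 21.9% and 45.2%.

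The repeat arrays bear on the low signals of run 14985. Repeats of samples 1, 2 and 5 had median signals of 608, 568 and 523.5, against 519, 475 and 470 on the first arrays. The part of this general rise in the changes below was not tested. Of 117 probe sets that differed and were lowest in that run, 63 were still the lowest when repeats of samples 1, 2 and 5 took its place. Of 32 that were highest there, 23 remained so. Drd3 read 2942, 3006, 2807, 2551 and 2819 in run 14985, below all other arrays, and 4748, 4597 and 4842 on the repeats of samples 1, 2 and 5, which is within the range of the other runs.

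By list, the median SD within runs was largest among oligodendrocyte markers (0.685), neuropeptides (0.598), immediate early genes (0.564), astrocyte markers (0.541) and stress genes (0.529), and smallest among neuron markers (0.249). Mbp, the myelin basic protein gene, had one of the largest SDs within runs, 1.47 log2 units, and did not differ between runs (adjusted p = 0.305). It read 70, 2370, 226 and 171 in run 9136, 4627, 125 and 94 in run 19283, and 1478, 6833 and 1071 in run 19869. A single array of each of these runs was thus several times above its neighbours. Pik3r1, a regulatory subunit of PI3 kinase, had an SD of 1.45, and Hspa1a, Mt1, S100b and Hmox1 had SDs of 1.30, 1.20, 1.20 and 1.19. Sst had 0.948 and read from 1983 to 34634.

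Hspa1a, Hmox1 and Mt1 had some of the largest SDs within runs. Their spread among controls 1, 2 and 5 of run 14985 recurred when these samples were hybridized again. Hspa1a read 16656, 1416 and 752 on the first arrays of controls 1, 2 and 5, and 12415, 1791 and 819 on their repeats. Hmox1 read 37431, 13336 and 2287 at first, and 49650, 14227 and 2964 on the repeats. Mt1 read 54359, 22376 and 2700 for these 3 samples and 45480, 22510 and 3369 on the repeats. Control 5 was thus low in Fosl1, Hspa1a, Hmox1 and Mt1 and high in Tac1, and its second array read 408, 819, 2964, 3369 and 18568 for these genes.

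Repeat arrays of controls 3 and 4 stood apart and are left out of the values just given. For these samples Hspa1a went from 5779 and 14293 to 6234 and 7656, Hmox1 from 39083 and 27218 to 614 and 20009, and Mt1 from 49615 and 50727 to 5618 and 14132. Their background levels were 3704 and 3137, against 242 to 297 on the other 3, and their ranks correlated with those of the first arrays at a Spearman rho of 0.11 and 0.47 over 884 probe sets. The other pairs gave 0.92, 0.94 and 0.93, which describes agreement across probe sets of unequal brightness. Limma's paired fit of first against repeat arrays called 0 of 884 probe sets (0%), and 100 had an unadjusted p under 0.05. Without pairs 3 and 4, an alternative chosen after seeing the data, the count was also 0. With 2 such arrays in the one fit and 3 pairs in the other, these counts do not show that readings stayed the same, and Drd3 was higher on the repeat in each of pairs 1, 2 and 5. The median SD of a repeat, taken from the spread of the differences in pairs 1, 2 and 5, was 0.273 log2 units. The median SD among the 5 samples of run 14985 was 0.287. A shift common to all 3 pairs, as for Drd3, does not enter the SD of a repeat, which therefore leaves out part of the change. Among the dimmer 442 probe sets the same medians were 0.430 and 0.358, and among the brighter 442 they were 0.192 and 0.217.

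**Figure D5:**
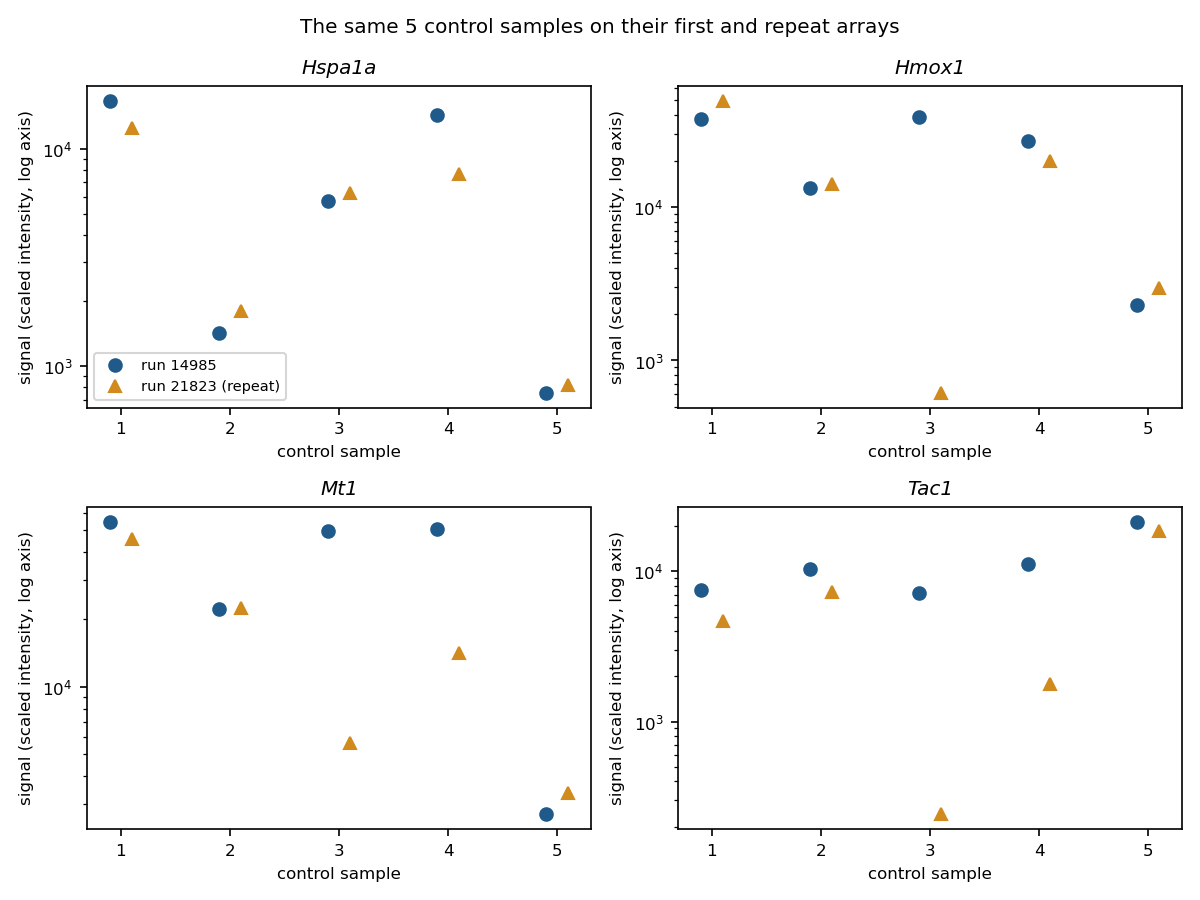
Signal (log axis) of Hspa1a, Hmox1, Mt1 and Tac1 for control samples 1 to 5 on their first arrays in run 14985 (circles) and repeat arrays in run 21823 (triangles). For samples 1, 2 and 5 the order of the samples is the same on both arrays for each gene. Repeat arrays 3 and 4, with background levels of 3704 and 3137, depart from the first reading for Mt1 and Tac1. So do repeat array 3 for Hmox1 and, to a lesser degree, repeat array 4 for Hspa1a.

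Arrays of a run resembled each other more than arrays of different runs, but not by much. Spearman's rho over the tested probe sets was 0.87 to 0.97 in 31 pairs within runs, with a median of 0.92, and 0.78 to 0.95 in 269 pairs between runs, with a median of 0.88. For 16 of the 24 arrays of replicated runs the nearest array was of the same run. Deviations of a control from its group mean were also compared with those of treated arrays of its run. The Pearson correlation over probe sets had a median of 0.34 in 60 pairs that share a number or date in their labels. It was -0.11 in 162 pairs that do not. The labels do not say that a shared number or date means a shared culture. Deviations within a group sum to 0, so values for pairs with different labels lean below 0. Run 19869 had the highest median for shared labels, 0.46, and run 23145 the lowest, 0.11.

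A few genes barely varied. Among named probe sets the smallest total SDs, 0.16 to 0.18 log2 units, belonged to Atp2a2, the calcium pump of the endoplasmic reticulum, a Mapt probe set, Fyn, a tyrosine kinase, 3 probe sets of Capns1, Fez1, Pdap1, Aco1 and Gnb2, a G protein subunit. A small total SD did not mean equal runs, as Gnb2 differed between them by the F test (adjusted p = 0.0432). Its arrays of run 19869 read 26329 to 33983, below all others, which read 34224 or more. Atp2a2 read 13094 to 21741, with a median of 15769, and its run means lay between 14690 ± 1071 and 16423 ± 875 (adjusted p = 0.915). Capns1 read 32776 to 49114 on its brightest probe set. Mapt was not steady as a gene, because its brightest probe set ranged from 43995 to 127593 and differed between runs (adjusted p = 0.00049). Its highest run was 19222 as deposited and 13276 under quantile and median scaling, and its lowest was 19869 in each case. Among the genes with several tested probe sets, 81 had probe sets that differed in whether they passed.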

How the data were processed

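Cultured rat cortical neurons were hybridized to an Affymetrix rat neurobiology array. The authors deposited 1 linear intensity per probe set and array, already scaled to a common trimmed mean, with software that no source used here names. Control probe sets were left out, and genes were named through the platform annotation (720 genes, 1137 probe sets with 1 gene, 8 with several, 118 with none), with symbols checked against RefSeq GRCr8. Background per array was the 90th percentile of the probe sets for Bacillus genes.

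Signals were taken as log2(intensity + 60.1), the offset being the 10th percentile, and probe sets with a mean below 265.82, the 30th percentile, were left out of tests. Runs with replicates (24 arrays) were compared with limma 3.58.1 in R 4.3.3 by a moderated F test, adjusted by Benjamini-Hochberg at 0.05. The labels do not say that arrays of a run are separate cultures, so p-values measure only the spread between these samples. First and repeat hybridizations of run 14985 were compared as pairs. In simulated data the F test recovered 52% of shifts of 1 log2 unit and 84% of shifts of 2 units. Alternatives were another offset, other filters, quantile and median scaling, and leaving out arrays or runs.

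Genes were named where they were the highest or lowest of a list, differed most between runs, or varied most or least. List members that differed could also be named, and other genes that separated a run were named after their values were seen. The arrays and gene lists were chosen with earlier results of these data known.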

Additional observations from a re-analysis of the deposited data

Results flagged for a closer look

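Samples that stood apart from the rest of their run were sought in the runs of 4 and 5 arrays, over 112 group measures, and 14 did. A chance rate of about 1 in 20 holds for measures picked beforehand. Most of these were probe sets chosen by their signal or spread in the same data, so that rate is no yardstick here.

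In run 9136, control 3 had a Gapdh 3' to 5' ratio of 1.749 against 1.359 to 1.378 on the others, and 755 probe sets above background against 906 to 920. Control 2 had a beta-actin ratio of 1.208 against 0.8024 to 0.859. On the log2 scale control 2 was low in Ckb (15.65 against 15.93 to 15.97) and in an Egr1 probe set (10.76 against 12.59 to 12.84), and high in Ccl2 (13.16 against 11.87 to 12). Control 3 was low in a Hmox1 probe set (11.24 against 12.61 to 12.85), in Ctnnd2 (10.87 against 11.21 to 11.26) and in Gnb2 (15.07 against 15.38 to 15.42). Control 1 was high in Atp2a2 (14.41 against 13.82 to 13.85).

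In run 14985, control 5 was low in Mt2A (14.73 against 16.3 to 16.46) and Fosl1 (7.122 against 10.67 to 11.41) and high in a probe set of the kinase gene Pak1 (14.65 against 13.42 to 13.74). Control 2 was high in Tubb5 (17.43 against 17.2 to 17.27).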

How the results depend on the processing

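The count of probe sets that differed between runs, 387 of 884, was 188 without run 14985, 66 with repeat run 21823 in its place, and 238 with repeat arrays 3 and 4 also left out, an alternative chosen after seeing the data. Leaving out 1 array at a time gave 330 to 415. With the other alternatives it stayed within 1.5 times: 392 with another offset, 397 without a filter, 328 with a stricter filter, 297 under quantile scaling, 334 under median scaling, 348 with run 9600 added and 301 to 417 with any other single run left out. Of 155 named probe sets that differed, 116 passed under quantile scaling, 116 under median scaling, 145 without control 2 of run 13276 and 75 without run 14985. In the paired comparison of first and repeat hybridizations limma called 0 of 884 probe sets with the pairs as a block and 0 without the replicate block, with 100 at an unadjusted p under 0.05 in the paired fit. Signals near background limit the dim receptor and channel genes, and 3 to 5 arrays a run limit precision. The cause of these changes was not tested.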
